A study of Mus musculus with 6 samples.

Results

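Checkpoint blockade was compared with none in mice that all ate a 1,3-butanediol diet, using single-cell RNA counts of implanted prostate tumours. The 2 groups were chosen by the treatment named for each cell in the deposited cell table, BD (diet alone, 3 tumours) and BD+ICB (diet with blockade, 3 tumours). They held 490 and 1730 cells, together 2220 of the 5749 deposited cells. The tumours grew in C57Bl6 mice from PPS-ICBR, a murine line of prostate cancer that resists checkpoint blockade, and the remaining 6 tumours of the study came from mice on a standard diet without (SD) or with blockade (ICB).

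Both compared groups ate chow (198 g) mixed with 80 mL of 1,3-butanediol, 120 mL of water and 2 g of saccharine. BD+ICB mice also received the blockade, which per the labels targeted PD-1 and CTLA-4 and was given biweekly at 0.2 mg. All tumours came from 1 cell line, cells were taken from the leukocyte layer of a Percoll gradient, and no age is given in the labels used here. In the deposited table of hashtags, the listed size of every BD+ICB tumour was below that of every BD tumour. Each tumour had its own hashtag, an oligonucleotide-labelled antibody that marks its cells, and the labels name tumours but no mice. SD and BD tumours were loaded into 1 droplet library and ICB and BD+ICB tumours into the other. The library and the blockade therefore cannot be told apart in any change from BD to BD+ICB, and changes of 1 cell class were also compared with those that all classes shared.

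PD-1 and CTLA-4 are inhibitory receptors of T cells, and antibodies against them can release T cell responses in tumours. Activated T cells and NK cells secrete interferon-gamma, which acts on neighbouring cells and turns on the immunoproteasome, the peptide transporter, MHC class I molecules, guanylate-binding proteins and the chemokines CXCL9 and CXCL10. 1,3-Butanediol is converted in the body to beta-hydroxybutyrate, a ketone body and the ligand of the receptor HCAR2 found on neutrophils and macrophages.

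Cells were assigned to tumours by 3 hashtag oligos, each used once in either library. They are shown because tumours BD.1 and BD+ICB.1 carried the same oligo, as did each further pair with a shared number, so that the library barcode alone separated the 2 groups.
Hashtag of BD.1 and BD+ICB.1: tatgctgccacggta
Hashtag of BD.2 and BD+ICB.2: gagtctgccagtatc
Hashtag of BD.3 and BD+ICB.3: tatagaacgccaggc

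Promoters of 5 genes that were higher in BD+ICB in at least 1 class are given next, as examples from the MHC class I and interferon-gamma lists. These 5 were picked by hand, so their matches do not show how common such letters were. Shares over genes called in 2 or more classes are given in the next paragraph. The sequences are RefSeq's on GRCm38.p6, cover the 180 bases before the start site, and run 5′ to 3′ on the strand of the gene. Capitals mark the letters of an interferon-stimulated response element (ISRE, searched as GAAA, any 2 bases, GAAA) or a gamma-activated site (GAS, TTCNNNGAA) on either strand. The B2m sequence (chr2:122147507-122147686, plus strand) holds an ISRE match that starts 139 bases upstream, that of Gbp2 (chr3:142620483-142620662, plus strand) one at 59 bases and that of H2-T23 (chr17:36032702-36032881, minus strand) one at 124 bases. The Igtp sequence (chr11:58199376-58199555, plus strand) holds a GAS match at 45 bases and an ISRE match at 34 bases. The Tap1 sequence (chr17:34187376-34187555, plus strand) holds neither set of letters, and its 300-base window shares 275 bases with that of Psmb9, its neighbour.
B2m: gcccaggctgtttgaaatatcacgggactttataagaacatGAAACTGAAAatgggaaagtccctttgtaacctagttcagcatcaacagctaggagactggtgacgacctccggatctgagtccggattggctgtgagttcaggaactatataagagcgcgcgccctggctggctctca
Gbp2: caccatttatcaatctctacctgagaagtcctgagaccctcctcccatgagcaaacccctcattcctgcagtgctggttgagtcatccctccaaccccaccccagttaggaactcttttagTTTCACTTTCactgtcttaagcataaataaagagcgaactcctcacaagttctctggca
Igtp: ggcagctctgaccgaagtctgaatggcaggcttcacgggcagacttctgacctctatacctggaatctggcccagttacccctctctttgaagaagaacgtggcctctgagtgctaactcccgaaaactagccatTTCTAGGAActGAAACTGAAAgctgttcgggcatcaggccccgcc
H2-T23: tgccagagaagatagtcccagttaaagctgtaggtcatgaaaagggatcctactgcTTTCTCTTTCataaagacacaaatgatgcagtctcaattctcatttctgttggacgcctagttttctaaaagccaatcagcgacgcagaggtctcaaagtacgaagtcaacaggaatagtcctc
Tap1: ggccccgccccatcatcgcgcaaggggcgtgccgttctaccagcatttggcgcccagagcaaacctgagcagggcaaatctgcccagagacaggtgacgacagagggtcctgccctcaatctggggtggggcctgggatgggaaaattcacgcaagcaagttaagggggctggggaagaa

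Over 300-base windows (250 bases before to 50 after the start site), 3.44% of all 32851 promoters in the table held the ISRE letters and 8.3% the GAS letters. Of the 52 genes called higher in 2 or more of the 4 testable cell classes (0.751% of 6925), 41 matched the table with 48 promoters, of which 11 (22.9%) held an ISRE match, 8 (16.7%) a GAS match and 15 (31.2%) either, against 11.3% with either among all promoters. Of the 30 genes called lower in 2 or more classes (0.433%), 18 matched with 21 promoters, of which 0 held the ISRE letters and 2 (9.52%), those of Mef2c and Rplp0, the GAS letters. A match is a run of letters and no measured site.

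Depth and cell numbers differed between the groups. The BD tumours held 70 to 303 deposited cells and 510984 to 2460592 UMIs, and the BD+ICB tumours 508 to 651 cells and 6082380 to 8773691 UMIs. The median UMI count per cell was 6604, 6952 and 9321 in BD.1, BD.2 and BD.3 and 10817, 9761 and 8366 in BD+ICB.1, BD+ICB.2 and BD+ICB.3. The libraries shared 1931 barcodes, and none of the deposited BD or BD+ICB cells was the shallow copy of such a pair. The names of 2 classes went against their markers. Cells labelled DC_Nos2+ had 0 of 7 dendritic markers above 20 CPM (counts per 1000000 UMIs), with all 8 macrophage and all 6 monocyte markers above it. Cells labelled Prof_cancer had 6 of 7 fibroblast markers above that level and 2 of 7 prostate epithelial ones. The names of the study are used as labels only.

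T cells labelled T_CD8+ and Vcan+ monocytes held larger shares of BD+ICB tumours than of BD tumours, and Trem2+ macrophages smaller ones. Cells labelled T_CD8+ were 2.97%, 0% and 0.855% of the cells of BD.1, BD.2 and BD.3 and 14.0%, 25.4% and 11.4% in the BD+ICB tumours. The 0 of 70 cells in BD.2 allows a share of up to 4.29%, for counting error only. No BD value reached the lowest BD+ICB value. T_CD4+ cells were 1.32%, 0% and 1.71% against 4.90%, 8.14% and 2.76%, but the same limit for the 0 cells of BD.2, 4.29%, lies above the lowest BD+ICB share. Cells labelled T_reg, few in every tumour, were 3.30%, 1.43% and 0% in BD and 0.350%, 0.768% and 0.394% in BD+ICB, with overlapping groups.

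Mono_Vcan+ cells, monocytes marked by the matrix proteoglycan gene Vcan, were 1.65%, 2.86% and 4.27% in BD and 14.5%, 11.2% and 15.6% in BD+ICB. Mac_M2_Trem2+ cells, macrophages that carry the lipid-sensing receptor gene Trem2, were 25.1%, 28.6% and 28.2% in BD and 7.71%, 3.53% and 3.54% in BD+ICB. In the ICB tumours, which share the library of BD+ICB but not the diet, Trem2+ cells were 28.0%, 5.10% and 2.85% and Mono_Vcan+ cells 4.33%, 5.45% and 13.3%. The first ICB tumour thus lay at the level of the BD tumours for Trem2+ cells.

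Over all 19 classes, 9 (47.4%) lay wholly above and 3 (15.8%) wholly below the BD tumours, together 63.2%. None passed the two-sided exact permutation test, whose 20 permutations cannot give less than p = 0.1 (smallest adjusted p 0.158). edgeR's quasi-likelihood test on cell numbers called 7 classes. T_CD8+ led with a log2 difference of 3.27 (adjusted p 0.00173), Mac_M2_Trem2+ had -2.46 (adjusted p 0.00602) and Mono_Vcan+ 2.32 (adjusted p 0.0203). The deposited cells all had over 500 hashtag counts. Among cells given the T_CD8+ class without that limit, it kept 31.0%, 0% and 50.0% of 29, 2 and 4 in BD.1, BD.2 and BD.3. In the BD+ICB tumours it kept 68.7%, 89.7% and 94.8% of 115, 185 and 58. Cells were therefore also assigned without the limit, with classes carried over from the deposited cells. T_CD8+ cells were then 3.76%, 1.12% and 1.55% in BD and 13.5%, 22.6% and 7.90% in BD+ICB, Mono_Vcan+ cells 1.04%, 1.12% and 2.71% against 11.7%, 8.19% and 10.9%, and Trem2+ cells 16.3%, 19.0% and 26.0% against 9.26%, 7.21% and 3.95%. These 3 classes stayed without overlap. Of the 12 classes without overlap among the deposited cells, 4 then overlapped, namely Mac_M2_Mmp+, Prof_immune, Neu_Ifit+ and Prof_cancer, while Mesenchymal and Neu_Hilpda+ cells came to lie wholly below BD. Mac_M2_Mmp+ cells were 16.2%, 15.7% and 14.5% against 8.23%, 3.38% and 9.45% among deposited cells (edgeR log2 difference -1.14, adjusted p 0.135) and 8.16%, 6.15% and 6.59% against 6.45%, 2.08% and 6.54% without the limit.

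**Figure D1:**
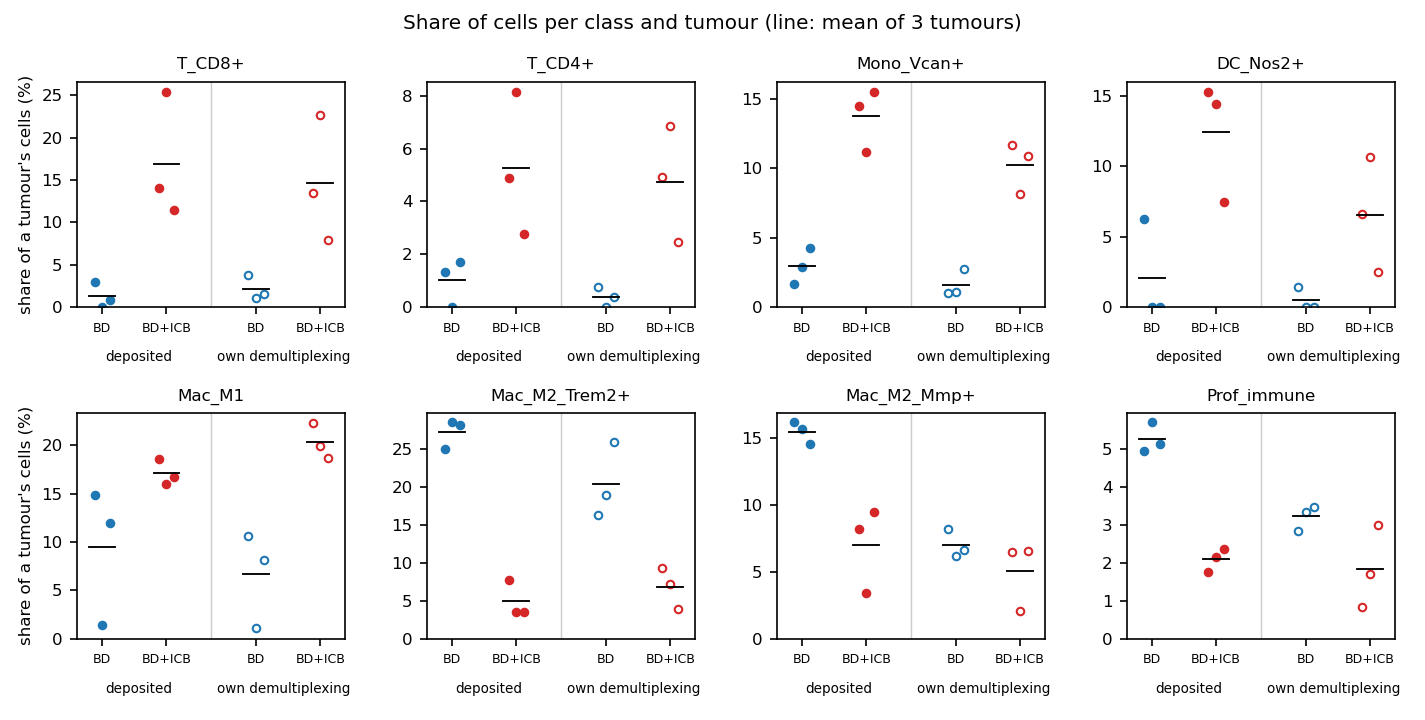
Share of each tumour's cells (%, vertical axes) in 8 classes, for BD (blue) and BD+ICB (red) tumours; filled points are deposited cells, open points cells assigned without the hashtag limit, and lines are means of 3 tumours. T_CD8+ cells reached 11.4% to 25.4% in BD+ICB and at most 2.97% in BD among the deposited cells.

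Transcripts of T and NK cell effectors were counted over all deposited cells of a tumour. Ifng, the interferon-gamma gene, had 11, 0 and 0 UMIs over all cells of BD.1, BD.2 and BD.3 and 387, 509 and 73 in the BD+ICB tumours, which is at most 4.47 CPM in BD and 45.7, 58.0 and 12 CPM in BD+ICB. Gzmb, a granzyme of killer cells, had 84.1, 7.83 and 10.3 CPM in BD and 119, 219 and 126 in BD+ICB. For both genes every BD+ICB tumour was above every BD tumour. The share of all genes that did so in whole-tumour sums was not counted, for these genes or for Pdcd1 below. Such sums mix classes whose shares differed between the groups. Prf1, the pore-forming perforin, had 26.0, 0 and 0.854 against 19.2, 39.8 and 20.2 CPM, so its groups overlapped. T and NK cells together made up 10.2%, 1.43% and 5.13% of BD cells and 21.4%, 36.7% and 16.1% of BD+ICB cells. Pdcd1, which encodes PD-1, had 15.0, 0 and 5.13 against 45.1, 63.5 and 27.5 CPM, without overlap, and Ctla4 26.0, 3.91 and 5.13 against 24.3, 38.6 and 25.7, with overlap through BD.1. Only 10 T_CD8+ cells were deposited from the BD tumours, so levels within T cells could not be tested.

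Counts were summed per tumour within a class, and 4 classes had 10 or more cells in at least 2 tumours of each group. These were macrophages labelled Mac_M1 (14 to 45 cells in BD.1 and BD.3, 85 to 106 in BD+ICB tumours), Mac_M2_Mmp+ (11 to 49 against 22 to 48), Mac_M2_Trem2+ (20 to 76 against 18 to 44), and neutrophils labelled Neu_Cxcr2+ (12 and 15 in BD.3 and BD.2, 13 to 70 in BD+ICB). Fold changes are log2 ratios ± SE from edgeR's quasi-likelihood test, a gene counts as called at an adjusted p under 0.05, and levels are in CPM. Called genes were 102 of 6701 (1.52%; 70 higher and 32 lower in BD+ICB) in Mac_M1, 51 of 4723 (1.08%; 37 and 14) in Mac_M2_Mmp+, 199 of 5049 (3.94%; 89 and 110) in Mac_M2_Trem2+, and 93 of 2961 (3.14%; 84 and 9) in Neu_Cxcr2+. DESeq2 moved 2 of these splits, to 51 higher and 60 lower in Mac_M2_Mmp+ and to 91 and 30 in Neu_Cxcr2+. Over the 4 classes together DESeq2 called 593 gene and class pairs, against 445 by edgeR. The neutrophil sums were shallow, at 34264 and 24677 UMIs in the 2 BD tumours against 37418 to 198017.

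Genes of MHC class I presentation rose in all 4 classes. Of the 20 genes in the list, 8 of 20 tested were called higher in Mac_M1, 6 of 18 in Mac_M2_Mmp+, 9 of 20 in Mac_M2_Trem2+ and 9 of 17 in Neu_Cxcr2+, and none lower. Over all genes tested, 1.04%, 0.783%, 1.76% and 2.84% were called higher in these classes. Their median log2 fold changes were 1.15, 1.00, 1.30 and 2.30 (1.90 in neutrophils with 3 genes at 0 in BD set at their bound), against 0.006, -0.004, -0.002 and 0.14 over all genes tested in the class. Every tested member had a positive fold change. Leaving out single BD or BD+ICB tumours gave 5 to 10 called genes in Mac_M1, 3 to 15 in Mac_M2_Trem2+ and 5 to 10 in Neu_Cxcr2+. In Mac_M2_Mmp+ the range was 0 to 10, with 0 without BD.2, BD.3 or BD+ICB.2.

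Tapbp and Tap2 were the only genes called higher in all 4 classes, 2 of the 2605 tested in each (0.0768%). Tapbp encodes tapasin, which loads peptides onto MHC class I. It stood at 350 and 173 CPM in Mac_M1 of BD.1 and BD.3 and at 676, 678 and 624 CPM in BD+ICB (log2 fold change 1.23 ± 0.24, adjusted p 0.0151). In Mac_M2_Mmp+ it had 261, 154 and 111 against 444, 693 and 396 CPM (1.48 ± 0.30, adjusted p 0.0178), and in Mac_M2_Trem2+ 385, 146 and 230 against 638, 913 and 429 CPM (1.35 ± 0.33, adjusted p 0.0325). Neutrophils had 142 and 0 CPM in BD.2 and BD.3 and 504, 582 and 484 CPM in BD+ICB (2.67 ± 0.58, adjusted p 0.00469). The groups overlapped in no class. All BD+ICB tumours likewise lay above all BD tumours for 20.1% of the genes tested in Mac_M1, 9.57% in Mac_M2_Mmp+, 10.7% in Mac_M2_Trem2+ and 19.9% in neutrophils.

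Tap2, a subunit of the peptide transporter, rose from 50.9 and 22.5 to 144, 134 and 119 CPM in Mac_M1 (adjusted p 0.00981). It had 0 counts in both BD neutrophil sums and 158, 356 and 183 CPM in BD+ICB, at least 3.74-fold higher against a floor of 3 counts over the BD group. B2m, the light chain of MHC class I, had 4464, 2448 and 1765 against 6622, 7925 and 5863 CPM in Mac_M2_Mmp+ (log2 fold change 1.23 ± 0.25, adjusted p 0.0186). In Mac_M2_Trem2+ it rose by a log2 fold change of 1.44 ± 0.29 (adjusted p 0.0148). In neutrophils B2m had 538 and 833 against 4790, 5204 and 4341 CPM (2.82 ± 0.32, adjusted p 5.85e-07). In Mac_M1, 3142 and 1418 against 6272, 6592 and 5690 CPM missed the threshold (adjusted p 0.0926).

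H2-K1, a classical MHC class I heavy chain, rose in 3 classes, from 1758, 875 and 833 to 3257, 3614 and 3151 CPM in Mac_M2_Trem2+ (log2 fold change 1.52 ± 0.27, adjusted p 0.00632) and from 651 and 357 to 1828, 2634 and 1790 CPM in neutrophils (2.01 ± 0.35, adjusted p 0.000438). In Mac_M1 it missed the threshold (1.11 ± 0.26, adjusted p 0.067). H2-T23, which encodes the nonclassical molecule Qa-1, rose in the 3 macrophage classes, for example from 116, 48.6 and 126 to 344, 432 and 353 CPM in Mac_M2_Trem2+ (1.88, adjusted p 0.0044), and had 0.98 in neutrophils (adjusted p 0.364). Psmb9, an immunoproteasome subunit, rose from 84.8 and 52.5 to 220, 241 and 205 CPM in Mac_M1 (1.58, adjusted p 0.001). Its 1 count over the BD neutrophils gave a ratio of 16.3 with a counting interval of 2.84 to 650.

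**Figure D2:**
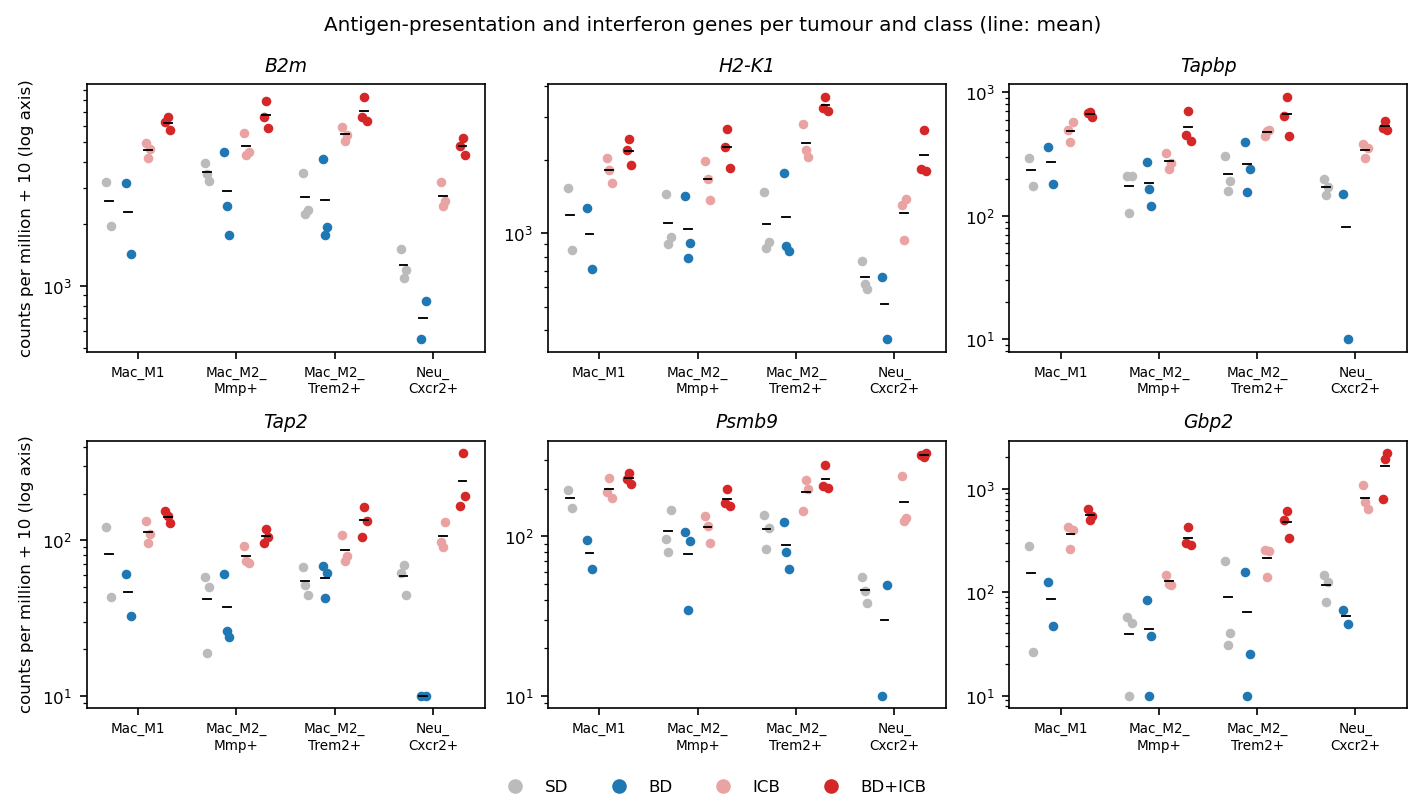
Levels of 6 antigen-presentation and interferon genes (CPM + 10, log axes) in the 4 classes (horizontal axes), 1 point a tumour and lines for group means. In each class and gene the BD+ICB points (red) lie above the BD points (blue), and the ICB points (pink) lie above the BD means; B2m in neutrophils ranges from 538 CPM in BD to 5204 CPM in BD+ICB.

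The tumours on the standard diet showed the same order of levels in the same 2 libraries. B2m in neutrophils had 1507, 1078 and 1187 CPM in SD and 3185, 2426 and 2563 CPM in ICB, and Tapbp in Mac_M1 had 287 and 165 CPM in SD and 485, 385 and 569 CPM in ICB. The BD+ICB levels were above each ICB level for both genes, and the BD neutrophils were below each SD level for B2m. Whether the step from BD to BD+ICB differed from that of SD to ICB was tested gene by gene (diet dependence) and is given with Hcar2.

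Interferon-gamma targets formed the second group that moved across classes. Of 22 genes in the list, 4 of 21 tested were called higher in Mac_M1 (median log2 fold change 1.37), 8 of 18 in Mac_M2_Mmp+ (1.64), 5 of 19 in Mac_M2_Trem2+ (1.96) and 10 of 18 in neutrophils (4.41, or 2.76 with 7 genes at 0 in BD set at their bound). None was called lower. Over all genes tested, 1.04%, 0.783%, 1.76% and 2.84% were called higher in the same order of classes. The count fell to 2 in Mac_M2_Mmp+ without BD.3 or BD+ICB.2 and to 0 in Mac_M2_Trem2+ without BD.3, and was 4 to 6 in Mac_M1 and 7 to 11 in neutrophils over the tumours left out. DESeq2 called 10, 3, 10 and 11 in the same order.

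Guanylate-binding proteins and immunity-related GTPases, which attack the vacuoles of pathogens inside cells, were low or at 0 in BD. Gbp2 had 73.7, 0 and 27.8 against 289, 411 and 277 CPM in Mac_M2_Mmp+ (log2 fold change 2.90, adjusted p 0.0202), and its 3 counts in BD neutrophils gave a ratio of 33.3 (interval 11.3 to 162). In Mac_M1 and Mac_M2_Trem2+ Gbp2 had fold changes of 2.60 and 2.91 that missed the threshold (adjusted p 0.177 and 0.21). Iigp1 rose in Mac_M2_Mmp+ from 5.67, 8.11 and 27.8 to 205, 166 and 135 CPM (3.64, adjusted p 0.00927). In neutrophils 3 such genes had 0 counts in BD. Gbp7 reached 252, 550 and 467 CPM in BD+ICB (at least 7.81-fold higher), Gbp5 158, 372 and 602 CPM (at least 8.39-fold) and Igtp 189, 242 and 266 CPM (at least 4.26-fold).

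Other interferon targets moved in fewer classes. Cxcl9, the chemokine that draws CXCR3-bearing T cells, was called in none of the 4 classes, although its 367 and 52.5 CPM in Mac_M1 of BD stood against 1427, 1180 and 1236 CPM. Cxcl10, which acts on the same receptor, rose in neutrophils from 198 and 0 to 693, 824 and 851 CPM (log2 fold change 2.81, adjusted p 0.043). Cd274, which encodes the PD-1 ligand PD-L1, rose in Mac_M2_Mmp+ from 142, 114 and 83.4 to 249, 297 and 203 CPM (1.10, adjusted p 0.0348) and in neutrophils from 453 and 278 to 662, 1212 and 1093 CPM (1.44, adjusted p 0.0362). Its fold changes of 1.37 in Mac_M1 and 1.96 in Mac_M2_Trem2+ missed the threshold. Nos2, the inducible nitric oxide synthase, rose in Mac_M2_Trem2+ from 9.68, 0 and 0 to 57.0, 149 and 199 CPM (4.72, adjusted p 0.00564).

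The type I interferon list had 6 of 22 tested genes called higher in Mac_M1 (median log2 fold change 1.15), 0 of 21 in Mac_M2_Mmp+ (0.82, 4 at an unadjusted p under 0.05, as for 12.8% of all genes, and 0 by DESeq2), 2 of 17 in Mac_M2_Trem2+ (1.32) and 6 of 18 in neutrophils (2.40, or 1.55 with 6 genes at 0 in BD set at their bound). Of all genes tested, 1.04%, 0.783%, 1.76% and 2.84% were called higher in these classes. Leaving out single tumours gave 2 to 6, 0 to 4, 0 to 8 and 4 to 7 called genes of the list. Isg15, a ubiquitin-like protein, rose in neutrophils from 227 and 119 to 2489, 1697 and 1394 CPM (log2 fold change 3.33, adjusted p 6.22e-05). Ifi47, a GTPase that both interferon types induce, rose in Mac_M1 from 22.6 and 7.51 to 99.5, 94.1 and 116 CPM (2.48, adjusted p 0.00134) and in neutrophils from 0 counts to 378, 614 and 449 CPM (at least 8.13-fold). Zbp1, a sensor of nucleic acids, was at least 5.87-fold higher in neutrophils, with 0 counts in BD. Ifitm3, a membrane protein that blocks virus entry, rose in Mac_M1 by 0.86 (adjusted p 0.00515), from 949 and 938 to 1627, 1560 and 1944 CPM.

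Genes outside these lists also rose in all 3 macrophage classes. Slamf8, a surface receptor of the SLAM family on macrophages, rose from 22.6 and 7.51 to 105, 133 and 88.3 CPM in Mac_M1 (log2 fold change 2.57, adjusted p 0.0021). It had 0 counts in the 3 BD sums of Mac_M2_Mmp+ and 47.1, 102 and 47.0 CPM in BD+ICB (at least 13.4-fold). Il18bp, the secreted binding protein that neutralises interleukin-18, rose from 29.1, 37.8 and 15.3 to 150, 183 and 92.0 CPM in Mac_M2_Trem2+ (2.46, adjusted p 0.00761), from 11.3 and 0 to 85.0, 69.8 and 66.0 CPM in Mac_M1, and from 17.0, 24.3 and 0 to 63.9, 105 and 58.4 CPM in Mac_M2_Mmp+. Smpdl3b, a membrane-bound phosphodiesterase, had fold changes of 2.12, 2.94 and 2.76 in Mac_M1, Mac_M2_Mmp+ and Mac_M2_Trem2+ (adjusted p 0.0118, 0.0186 and 0.00437).

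Genes lower in BD+ICB across classes were led by ribosomal transcripts. Fau, which encodes a ribosomal protein fused to a ubiquitin-like one, was the only gene called lower in all 4 classes (0.0384% of 2605). It fell from 3597 and 4638 to 2690, 2683 and 2852 CPM in Mac_M1 (log2 fold change -0.58, adjusted p 0.0321), from 4660, 6275 and 5346 to 2974, 1975 and 3498 CPM in Mac_M2_Mmp+ (-0.94, adjusted p 0.0205) and from 6569 and 6667 to 3372, 2554 and 3839 CPM in neutrophils (-1.02, adjusted p 0.018). Of 22 ribosomal protein genes tested in each class, 7, 2, 18 and 0 were called lower in Mac_M1, Mac_M2_Mmp+, Mac_M2_Trem2+ and neutrophils, with medians of -0.50, -0.65, -0.72 and -0.58, and DESeq2 called 11, 14, 17 and 4. Over all genes, 0.478%, 0.296%, 2.18% and 0.304% were called lower. Without single tumours the counts ran from 0 to 7, 0 to 10, 3 to 19 and 0 to 1. Rps18 in Mac_M2_Trem2+ fell from 1617, 3359 and 2418 to 849, 1057 and 1165 CPM (-1.27, adjusted p 0.00437).

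The 2 libraries differed in such transcripts under the standard diet as well. Rps18 in Mac_M2_Trem2+ had 3293, 3517 and 3026 CPM in SD and 1109, 1784 and 1222 CPM in ICB. Gm10076, a predicted gene whose reads may be shared with near-identical copies, fell in the 3 macrophage classes, from 673 and 705 to 260, 289 and 276 CPM in Mac_M1 (log2 fold change -1.32 ± 0.16, adjusted p 6.09e-05), where SD had 655 and 800 CPM and ICB 274, 323 and 279 CPM. Gm42418, a locus that overlaps ribosomal RNA sequence, went the other way, from 41330, 31260 and 31860 to 100200, 100900 and 85100 CPM in Mac_M2_Mmp+ (1.45 ± 0.20, adjusted p 0.000288). In the same class it had 27730, 17940 and 34580 CPM in SD and 88040, 90130 and 92200 CPM in ICB. For these 3 genes the parts of the library and of the blockade cannot be told apart.

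**Figure D3:**
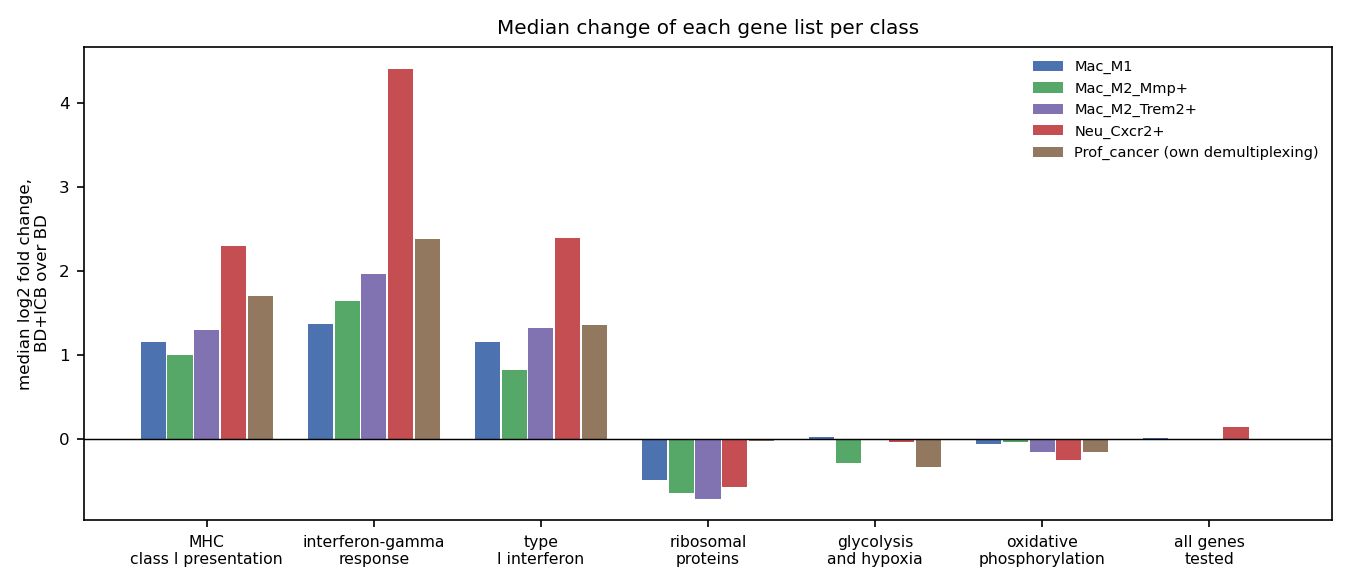
Median log2 fold change from BD to BD+ICB (vertical axis) of 6 gene lists and of all genes tested (horizontal axis), 1 bar per class; Prof_cancer cells come from the assignment without the hashtag limit. The 3 interferon and presentation lists lie between 0.82 and 4.41, ribosomal proteins between -0.72 and -0.03, and all genes near 0.

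Genes that fell in several macrophage classes included Rgs10 and Cx3cr1. Rgs10, which shortens G protein signals, fell from 229 and 390 to 79.1, 70.5 and 116 CPM in Mac_M1 (log2 fold change -1.73, adjusted p 0.000471), by 1.29 in Mac_M2_Mmp+ and by 1.60 in Mac_M2_Trem2+. Cx3cr1, the fractalkine receptor, fell from 84.8 and 60.0 to 7.91, 5.61 and 10.7 CPM in Mac_M1 (-3.26, adjusted p 0.0228) and from 53.9, 16.2 and 51.0 to 0, 11.7 and 13.0 CPM in Mac_M2_Mmp+ (-2.48, adjusted p 0.0274). In Mac_M2_Trem2+ its 201, 130 and 404 against 2.11, 11.1 and 84.3 CPM missed the threshold (adjusted p 0.0562). Over all genes, 0 of 6925 were called in opposite directions in different classes. Of the 2605 genes tested in all classes, 43 (1.65%) were called higher and 24 (0.921%) lower in at least 2, while 488 (18.7%) had positive and 366 (14%) negative fold changes in all 4.

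Markers of other cells moved with some of these classes, and their part in the results was not tested. In Mac_M1 all 8 macrophage markers were detected in each tumour and summed to 8154 and 12250 CPM in BD against 5849, 4262 and 6072 CPM, and the 6 monocyte markers to 3605 and 5645 against 2376 to 2528 CPM, with Plac8 at 0 in BD.3. In neutrophils 4 to 8 of 8 macrophage markers were detected, at 379 and 446 against 321, 522 and 773 CPM. Adgre1 was at 0 in BD.2 and BD.3, and Ms4a7 in BD.2, BD.3 and BD+ICB.1. C1qc was at 0 in BD.3, and Mrc1 in BD.3, BD+ICB.1 and BD+ICB.2. Neutrophil markers summed to 104600 and 124400 against 84770, 45310 and 73620 CPM, and monocyte markers to 3502 and 608 against 404 to 580 CPM, with Ccr2 at 0 in all 5 sums. The 8 T cell markers had 0 UMIs in 4 of the 5 neutrophil sums and 6 UMIs in BD+ICB.3, and at most 34.5 CPM in any Mac_M1 sum.

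Mac_M1 macrophages had further genes called in each direction. Hk3, a hexokinase of myeloid cells, rose from 42.4 and 22.5 to 160, 130 and 141 CPM (log2 fold change 1.97, adjusted p 0.000976). H2-DMa, which loads peptides onto MHC class II, rose from 232 and 113 to 446, 473 and 354 CPM (1.18, adjusted p 0.0125) and was the only one of 9 class II genes tested that was called there. Of all genes tested in Mac_M1, 1.04% were called higher. Herpud1, an endoplasmic reticulum protein of the unfolded protein response, fell from 150 and 67.5 to 36.3, 39.9 and 36.3 CPM (-1.70, adjusted p 0.00134). The integrin chain Itga6 fell from 59.3 and 105 to 10.5, 8.73 and 21.5 CPM (-2.48, adjusted p 0.0035). Lgals1, the lectin galectin-1, fell from 1732 and 2289 to 1001, 1016 and 1234 CPM (-0.88, adjusted p 0.004).

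In Mac_M2_Mmp+ macrophages the receptor chain Il2rg, shared by several interleukin receptors, rose from 39.7, 8.11 and 4.63 to 106, 160 and 104 CPM (log2 fold change 2.43, adjusted p 0.00391). Upp1, which splits uridine, rose from 25.5, 0 and 23.2 to 106, 160 and 125 CPM (2.68, adjusted p 0.000497). Irf1, a transcription factor induced by interferon-gamma, rose from 131, 56.8 and 41.7 to 246, 233 and 211 CPM (1.45, adjusted p 0.0246). The vesicle protein gene Syngr1 fell from 59.6, 203 and 148 to 30.3, 11.7 and 34.0 CPM (-2.19, adjusted p 0.00573), and Gbe1, the glycogen branching enzyme, from 42.5, 73.0 and 64.9 to 15.1, 8.74 and 14.6 CPM (-2.05, adjusted p 0.013). Arg1, which breaks down arginine and marks alternatively activated macrophages, was at 5485, 3851 and 4980 against 5268, 5755 and 5070 CPM, with overlapping groups.

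Mac_M2_Trem2+ macrophages had the most called genes. H2-D1, the second classical class I heavy chain, rose from 1399, 1291 and 1185 to 2718, 3288 and 2469 CPM (log2 fold change 1.13, adjusted p 0.00144). Psap, the precursor of the lysosomal saposins, rose from 3213, 2511 and 2703 to 5555, 8142 and 5160 CPM (1.16, adjusted p 0.0026), and Ctss, a protease that processes class II ligands, from 3256, 2792 and 2963 to 5585, 7279 and 4915 CPM (0.98, adjusted p 0.00437). Bst1, a surface enzyme of NAD metabolism, rose from 94.4, 48.6 and 49.0 to 228, 277 and 291 CPM (1.96, adjusted p 0.00157).

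Among the genes lower in Mac_M2_Trem2+, the transcription factor Mef2c fell from 128, 119 and 144 to 33.8, 11.1 and 23 CPM (log2 fold change -2.33, adjusted p 0.000647), and the protease Htra3 from 36.3, 81.0 and 70.4 to 4.23, 5.54 and 7.67 CPM (-3.46, adjusted p 0.0037). Ccr2, the receptor that brings monocytes into tissue, fell from 320, 146 and 224 to 54.9, 88.6 and 138 CPM (-1.48, adjusted p 0.011). The immediate early gene Egr1 rose from 160, 43.2 and 110 to 365, 736 and 552 CPM (2.29, adjusted p 0.011), and Egr2 was the other of 20 dissociation and immediate early genes called by edgeR, where DESeq2 called 4. Of all genes tested in this class, edgeR called 3.94%. Gpnmb, a glycoprotein of lipid-laden macrophages, rose from 4.84, 37.8 and 36.7 to 148, 266 and 123 CPM (2.91, adjusted p 0.0264). Macrophage markers summed to 20430, 31430 and 32690 CPM in BD and 35030, 17230 and 18770 CPM in BD+ICB, so these groups overlapped.

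Among the genes called in Neu_Cxcr2+ neutrophils, Il1rn, the interleukin-1 receptor antagonist, rose from 425 and 794 to 3907, 5495 and 2900 CPM (log2 fold change 2.78, adjusted p 7.9e-06). Thbs1, the matrix glycoprotein thrombospondin 1, rose from 595 and 1627 to 9737, 5350 and 7129 CPM (2.77, adjusted p 1.1e-05), and Acod1, which makes itaconate, from 1331 and 1151 to 4065, 4574 and 5227 CPM (1.90, adjusted p 7.13e-05). Samhd1, which breaks down nucleotides, rose from 113 and 238 to 1765, 1196 and 1488 CPM (3.13, adjusted p 5.72e-05). Igfbp6, which binds insulin-like growth factor 2, fell from 368 and 357 to 31.5, 16.2 and 11.8 CPM (-4.50, adjusted p 2.95e-05). Alox5ap, which serves leukotriene synthesis, fell from 1982 and 1230 to 536, 436 and 437 CPM (-1.82, adjusted p 0.00136).

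Chemokine genes of neutrophils changed as well, with 4 of 15 tested called higher and 0 lower by edgeR, and 7 and 0 by DESeq2. By edgeR 2.84% of all genes tested in neutrophils were called higher and 0.304% lower. Ccl3, which attracts monocytes and T cells, rose from 4077 and 1667 to 7720, 14850 and 6981 CPM (log2 fold change 1.76, adjusted p 0.0287). Its receptor gene Ccr1 rose from 425 and 833 to 1449, 1390 and 1642 CPM (1.30, adjusted p 0.0197), and Ccrl2, which presents chemerin, from 2180 and 595 to 4947, 4833 and 3178 CPM. Cxcl10, given with the interferon targets, was the fourth. Cd74, the class II invariant chain, was the 1 class II gene of 5 called in neutrophils, from 142 and 79.4 to 473, 1083 and 413 CPM (2.49, adjusted p 0.018).

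The change of each class was then tested against the mean change of the other 3 in a joint fit with the tumour as a term, which removes what the classes of a tumour and library share. Neutrophils differed for 36 of 5472 genes (0.658%; 34 higher, 0.621%, and 2 lower, 0.0365%), Mac_M1 for 5 (0.0914%, all lower), Mac_M2_Mmp+ for 1 (0.0183%) and Mac_M2_Trem2+ for 0, where 317 genes (5.79%) had an unadjusted p under 0.05. With RLE in place of TMM scaling, 15 of the 36 neutrophil genes and 1 of the 5 Mac_M1 genes were called again. RLE called 13 genes higher and 5 lower in neutrophils, and moved the median difference of all genes in neutrophils from 0.49 to 0.08. Neutrophil differences are therefore given under both scalings. Of the 17 class-specific differences named here and in the closing section, 4 were called by limma with the tumour as a random block, 7 with sums of at least 5 cells, 7 without BD.3, 8 without BD+ICB.1 and 11 without BD.2.

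Ftl1, the ferritin light chain that stores iron, was the first of the neutrophil genes, at a difference of 1.85 ± 0.28 on the log2 scale (adjusted p 1.67e-05; RLE 1.52, adjusted p 0.0169). It was at 4445 and 8611 against 8634, 9681 and 8747 CPM in neutrophils, a fold change of 0.47 that missed the threshold, and had -0.57, -1.28 and -0.48 in Mac_M1, Mac_M2_Mmp+ and Mac_M2_Trem2+. Rab7, which directs vesicles to lysosomes, differed by 1.99 (adjusted p 0.000283; RLE 1.67, adjusted p 0.00401), from 566 and 675 to 2206, 1794 and 1477 CPM in neutrophils. Nlrp3, the inflammasome sensor, differed by 2.01 (adjusted p 0.000283; with RLE 0.0385), from 1189 and 635 to 5199, 2586 and 2788 CPM. The lysozyme gene Lyz2 differed by 1.98 (adjusted p 0.00049; with RLE 0.0022), from 255 and 437 to 851, 1406 and 1116 CPM.

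Spp1, which encodes the secreted protein osteopontin, differed by 4.11 ± 0.48 in neutrophils (adjusted p 0.000103; RLE 3.83, adjusted p 0.0385), with 1048 and 238 against 4727, 2441 and 3567 CPM. The formyl peptide receptor gene Fpr2 was among the 2 lower ones (-2.92, adjusted p 0.000505; RLE -3.31, adjusted p 7.4e-05). It had 510 and 635 against 567, 614 and 532 CPM in neutrophils and fold changes of 1.22, 1.57 and 2.26 in the macrophage classes. The other was Cd69, an early activation marker (-3.41, adjusted p 0.0267, and with RLE -3.89, adjusted p 0.0308). B2m differed by 1.20 with TMM (adjusted p 0.0439) and by 0.87 with RLE (adjusted p 0.155), so its larger step in neutrophils was not called under both scalings. In Mac_M1, Lyz2 differed by -1.34 (adjusted p 0.0189; RLE -1.23, adjusted p 0.00117) and was the only gene called under both.

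**Figure D4:**
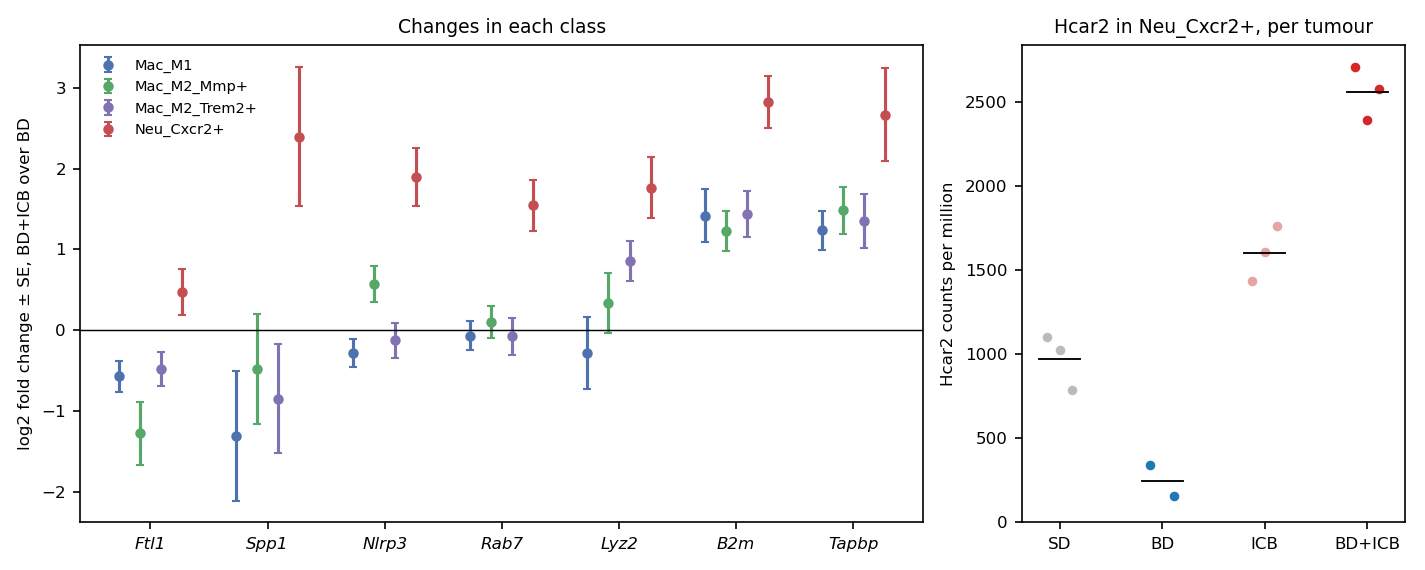
Left, log2 fold change ± SE from BD to BD+ICB (vertical axis) of 7 genes in the 4 classes; the neutrophil points (red) lie above the macrophage points for each gene. Right, Hcar2 CPM in Neu_Cxcr2+ sums, 1 point a tumour and lines for means, with BD at 159 and 340 and BD+ICB at 2392 to 2710.

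Hcar2, which encodes the receptor of beta-hydroxybutyrate, was the 1 gene whose change between the libraries without and with blockade differed between diets by edgeR. In neutrophils it had 1106, 1025 and 788 CPM in SD, 340 and 159 CPM in BD, 1434, 1607 and 1765 CPM in ICB and 2710, 2392 and 2581 CPM in BD+ICB. BD lay below and BD+ICB above all other tumours. The step from BD to BD+ICB was 3.29 ± 0.37 on the log2 scale (adjusted p 5.85e-07), and it exceeded that from SD to ICB by 2.57 ± 0.44 (adjusted p 0.00434; 1 of 2961 genes, 0.0338%). The 2 BD sums held 16 UMIs of the gene, and the diet difference was not called without BD.3 or with at least 5 cells per tumour (highest adjusted p 0.14). In Mac_M2_Trem2+ Hcar2 rose from 21.8, 0 and 6.12 to 44.4, 44.3 and 76.7 CPM (2.11, adjusted p 0.0403). In the 3 macrophage classes 0 genes depended on diet by edgeR, with 467 (6.97%), 233 (4.93%) and 239 (4.73%) at an unadjusted p under 0.05 in Mac_M1, Mac_M2_Mmp+ and Mac_M2_Trem2+. DESeq2 called 7 gene and class pairs in all 4 classes together.

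Other genes of ketone handling and its proposed targets gave few calls. Hcar2 was the only ketone gene called, with 0 of 7 tested in Mac_M1 and in Mac_M2_Mmp+, 1 of 6 in Mac_M2_Trem2+ and 1 of 4 in neutrophils. Of all genes tested, edgeR called 1.52%, 1.08%, 3.94% and 3.14% in the same order of classes. Histone deacetylases had 0 called of 8, 6, 7 and 3 tested in the 4 classes, with 0 at an unadjusted p under 0.05 and 0 by DESeq2. Glycolysis and hypoxia genes had 1 call by edgeR, Pfkp, a phosphofructokinase, which rose in Mac_M1 from 70.6 and 60.0 to 153, 145 and 153 CPM (log2 fold change 1.16, adjusted p 0.0239). DESeq2 called 1 of 20 higher in Mac_M1 and 1 of 21 lower in neutrophils. Of the NF-kB and TNF response, edgeR called only Plaur, the urokinase receptor, in neutrophils, from 425 and 198 to 1733, 954 and 1034 CPM (1.88, adjusted p 0.0069). DESeq2 called 3 of 21 higher in neutrophils, 2 of 22 in Mac_M2_Mmp+ and 1 of 21 in Mac_M2_Trem2+. Of the suppressive granulocyte list, neutrophils had Hcar2 and Il1f9, an interleukin-36 gene, called of 15 tested, the latter from 56.6 and 119 to 599, 453 and 478 CPM. Of all genes tested in neutrophils, edgeR called 2.84% higher.

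When all macrophage classes were merged, 198 genes (2.27%) were higher and 192 (2.2%) lower of 8728 (4.47% called), and in merged neutrophils 113 (3.32%) and 37 (1.09%) of 3402 (4.41%). MHC class I genes were called higher for 16 of 20 in macrophages (median log2 fold change 1.26) and 11 of 18 in neutrophils. Ribosomal protein genes were called lower for 16 of 22 in macrophages. Merged neutrophils had 7 of 21 NF-kB genes called higher and 6 of 21 glycolysis genes lower, the latter with a median of -0.60. Merging mixes classes whose shares differed between the groups.

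Cells labelled Prof_cancer and Mesenchymal could be tested only among cells assigned without the hashtag limit, since at most 26.8% of a tumour's Prof_cancer cells had over 500 hashtag counts. Prof_cancer sums held 77, 10 and 18 cells in BD.1, BD.2 and BD.3 and 67, 41 and 96 in BD+ICB. These sums came to 3005547, 309096 and 632309 UMIs in BD and to 7700408, 3935166 and 9771191 UMIs in BD+ICB. In this class 360 genes (3.35%) were called higher and 266 (2.48%) lower of 10732 (5.83%). Of the 20 MHC class I genes, 14 were higher (median log2 fold change 1.71) and in all 20 every BD+ICB tumour was above every BD tumour, where 14.5% of all genes did so. Interferon-gamma targets were called for 11 of 21 (2.38) and ribosomal proteins for 0 of 22 (-0.03; 1 by DESeq2). With single tumours left out, 8 to 20 MHC class I and 3 to 12 interferon-gamma genes were called. Macrophage markers summed to 3737 and 1245 CPM in BD.2 and BD.3 and to 33.5 to 154 CPM in the other 4 tumours, with all 8 detected in each. Neutrophil markers summed to 220 and 305 CPM in BD.2 and BD.3 and to 12.6 to 38.4 CPM in the other 4. In BD.3, red cell markers summed to 302 CPM and endothelial ones to 250 CPM, against at most 0.333 and 2.33 CPM in any other tumour. The part of these markers in the changes was not tested.

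In these cells Tapbpl, a tapasin-like editor of class I peptides, rose from 18.4, 6.63 and 14.1 to 61.6, 67.5 and 43.9 CPM (log2 fold change 1.82, adjusted p 0.0018), and Psme1, a proteasome activator, from 174, 106 and 98.9 to 366, 453 and 339 CPM (1.49, adjusted p 0.0075). Tap1, the other subunit of the peptide transporter, rose from 40.6, 6.63 and 12.6 to 143, 132 and 111 CPM (2.11, adjusted p 0.024). Gbp2 rose from 64.6, 6.63 and 17.3 to 565, 495 and 298 CPM (3.36, adjusted p 0.0211) and Cxcl9 from 56.3, 6.63 and 4.71 to 746, 844 and 416 CPM (4.18, adjusted p 0.015). The 6.63 CPM of BD.2, given for Tapbpl, Tap1, Gbp2 and Cxcl9, rests on very few UMIs in a sum of 309096. H2-K1 had 519, 116 and 165 against 1050, 1335 and 1035 CPM and narrowly missed the threshold (1.91, adjusted p 0.0505). No gene depended on diet here by edgeR (748, or 6.97%, at an unadjusted p under 0.05). Mesenchymal cells had 23 genes called higher (0.212%) and 33 lower (0.304%) of 10846 (0.516%), with 3 of 20 MHC class I genes (0 to 11 over tumours left out) and 4 of 21 interferon-gamma genes (0 to 5) among those higher. Without BD.2 or BD.3 the MHC class I count was 0, without BD.2 the interferon-gamma count was 0 and without BD.3 it was 1, and a fit of only the 6 tumours called 0 of either list. DESeq2 called 13 of either list.

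**Figure D5:**
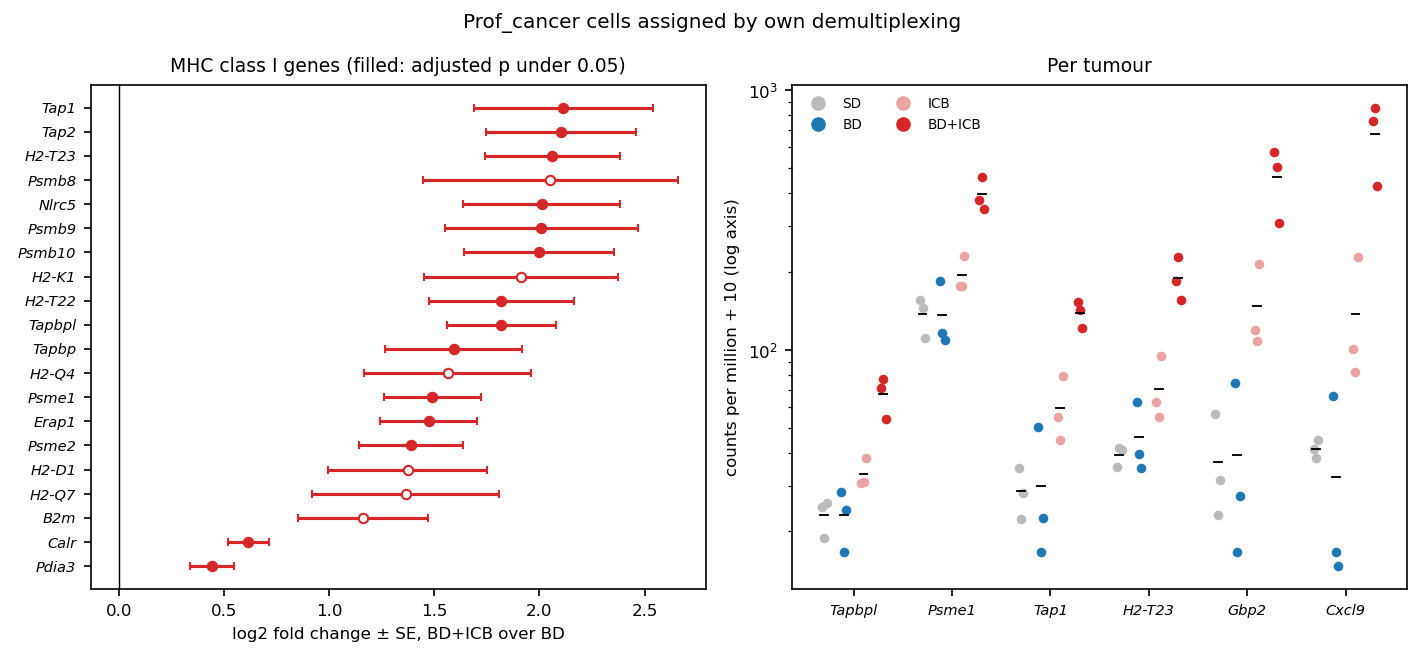
Prof_cancer cells assigned without the hashtag limit. Left, log2 fold change ± SE from BD to BD+ICB (horizontal axis) of 20 MHC class I genes, filled where the adjusted p was under 0.05 (14 genes). Right, CPM + 10 (log axis) of 6 genes per tumour in the 4 groups with lines for means; BD+ICB points (red) lie above BD points (blue) for each gene.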

How the data were processed

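Droplet single-cell RNA and hashtag counts were used as deposited. Gene counts are deposited as UMIs for each barcode from Cell Ranger 6.1.1, per the file headers, and the submitters' processing notes name R 4.1 and mm10. What software produced the deposited hashtag counts is not given in the sources used here. A table of cells deposited by the authors holds each cell's class, tumour and mitochondrial percent. Tests on the files showed that the 5749 deposited cells (15.7% of 36632 barcodes) had over 500 hashtag counts, under 5% mitochondrial UMIs and at least 250 genes, and that each was given to its top hashtag. Of the 1931 barcodes that the libraries shared, 1866 had UMI totals over 20-fold apart. No doublet caller was run, and 1 alternative kept only the 5325 cells whose top hashtag had 10 or more counts and was 3 or more times as high as the next. Members, gene lists and tests were chosen with earlier results of these data known.

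The tumour was the replicate. The labels name 3 different tumours per group and no mice, so p-values of the class fits and of the shares measure the spread between tumours. Class-specific p-values instead rest on the spread left between classes of a tumour, since the tumour was a term of the joint fit. Counts were summed per tumour within a class with at least 10 cells and fitted over all 12 tumours by group with edgeR 4.0.16 in R 4.3.3 (quasi-likelihood test, TMM, filterByExpr, robust), and p-values were adjusted by the Benjamini-Hochberg method over the genes of a class, threshold 0.05. CPM values of single genes within a class are summed counts per 1000000 after TMM scaling. Those of marker sums, and of Ifng, Gzmb, Prf1, Pdcd1 and Ctla4 over all cells, are counts per 1000000 UMIs without TMM scaling. Diet dependence is the BD to BD+ICB change minus the SD to ICB change in the same fit. Class-specific changes came from a joint fit of the 6 tumours with class, tumour and class by blockade terms. Shares were compared by a two-sided exact permutation test. Where a gene had 0 counts in BD, its fold is a lower bound against 3 counts over the group, and where it had 1 to 3 a ratio with an exact counting interval (95%) is given. Intervals and bounds cover counting error only. Named genes were the 5 higher and 5 lower with the smallest adjusted p per class and per class-specific test, genes called in the most classes, diet-dependent genes, up to 4 of each list and a set of immune genes. Genes of the Prof_cancer cells, list members and genes used to show a comparison were partly chosen after their values were seen.

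Own demultiplexing used that hashtag rule without the limit of 500 counts. Each cell took the class most common among its 15 nearest deposited cells, in a space of 30 components from 2000 genes. The deposited class was recovered for 79.8% of deposited cells, but for 21.1% of Mac_other, 31.4% of DC_Nos2+ and 60.9% of Neu_Ifit+ cells, and of the cells given Mac_M1, 51.1% were deposited as such. This check covers only cells above the limit. In BD.1, BD.2 and BD.3, 2 of 77, 0 of 10 and 0 of 18 Prof_cancer cells were above it, and 4 of 204, 0 of 26 and 1 of 61 Mesenchymal cells. It cannot show how well classes were given to the cells below the limit. Scripts were tested on simulated data. Alternatives were DESeq2 1.42.0, RLE factors, limma 3.58.1, other filters and cell minimums, thinned counts, the replicate block and leaving out each tumour.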

Additional observations from a re-analysis of the deposited data

Results flagged for a closer look

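Results in this section are those where the change from no blockade to blockade, which is also a change of library, differed by a test between diets or between classes. Between diets, the difference in Hcar2 in Neu_Cxcr2+ was 2.57 on the log2 scale.

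Between Neu_Cxcr2+ and the other 3 classes, with TMM scaling, the log2 differences of the change were 1.85 for Ftl1, 4.11 for Spp1, 2.01 for Nlrp3, 1.99 for Rab7, 1.98 for Lyz2, 1.20 for B2m, 1.66 for the lysosomal protease gene Ctsd, 1.92 for Plaur, -2.92 for Fpr2 and -3.41 for Cd69. Psmb8, an immunoproteasome subunit with 0 counts in the BD neutrophils, had a fitted difference of 9.42, which depends on the prior count. In neutrophils Ctsd had 623 and 794 CPM in BD and 1702, 1697 and 1276 CPM in BD+ICB. With RLE scaling the differences were 1.31 for Ctsd (adjusted p 0.021), 1.59 for Plaur (adjusted p 0.0308) and 9.27 for Psmb8 (adjusted p 0.0169).

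Between Mac_M1 and the other 3 classes the differences were -1.34 for Lyz2, -3.90 for the interferon-inducible gene Ifi207 (which had 0 counts in the BD neutrophils, so that the value depends on the prior count), -2.27 for Spp1, -1.25 for the early response gene Ier3 and -1.68 for Ccl3, and Ftl1 differed by -1.15 in Mac_M2_Mmp+. With RLE scaling the adjusted p was 0.1 for Ifi207, 0.62 for Spp1, 0.0612 for Ier3, 0.443 for Ccl3 and 0.19 for Ftl1 in Mac_M2_Mmp+. The differences of 1 class against the other 3 share data with those of the other classes, so a large step in neutrophils also enters the Mac_M1 values.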

How the results depend on the processing

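Over the 4 classes 445 gene and class pairs were called. Without a filter on low counts 820 were called, and 150 to 685 when each tumour was left out, with 150 without BD.3, 206 without BD.2, 221 without BD+ICB.2, 234 without BD+ICB.1 and 685 without BD.1. Pairs that depended on diet went from 1 to 7 with DESeq2, 29 without the filter, 0 with at least 5 cells, 3 with the stricter hashtag rule and 0 to 10 over the tumours left out. Merged compartments went from 540 to 902 without the filter and 229 to 798 over the tumours left out. Class-specific pairs went from 42 to 19 with RLE factors, 16 with limma and a random tumour block, 20 with thinned counts and 23 to 57 over the tumours left out. The alternatives for Prof_cancer and Mesenchymal cells were chosen after seeing the data. Prof_cancer calls went from 626 to 227 in a fit of only the 6 tumours and 261 to 577 over the tumours left out (261 without BD+ICB.1, 366 without BD.3). Mesenchymal calls went from 56 to 267 with DESeq2, 89 without the filter, 16 with at least 30 cells, 2 with only the 6 tumours and 2 to 364 over the tumours left out. Classes past the threshold for shares went from 0 to 7 with edgeR on cell numbers.

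Deviations of same-numbered tumours from their group means had correlations of -0.162 to 0.0374. Pairs with different numbers were not compared and each group holds few tumours, so this cannot decide whether the numbers pair the tumours. With the replicate block, 489 pairs were called per class, 2 for diet, 653 merged, 599 in Prof_cancer and 47 in Mesenchymal cells, and 0 classes by paired shares. Of the 165 named gene and class pairs called, 37 were called in every alternative and none reversed, and 97 were not called without BD.3. Of the 17 named class-specific genes, Rab7 was called in every alternative. A minimum of 30 cells left no single class and no Prof_cancer fit to test.

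Values near 0 changed sign. Rab7 had 0.034 without the filter and 0.0033 with own demultiplexing in Mac_M1. Over the tumours left out it ran from -0.019 (without BD.1) to 0.226 in Mac_M2_Mmp+ and from -0.238 to 0.074 in Mac_M2_Trem2+, above 0 there without BD.2 or BD+ICB.3. Nlrp3 had 0.051 in Mac_M1 with own demultiplexing. The share difference of Neu_Ifit+ was -0.051 points with own demultiplexing and -0.157 points over immune classes only, the latter chosen after seeing the data. The causes were not tested. Depth limits neutrophils most, where the 1 UMI of Psmb9 in BD.3 came to 39.7 CPM.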
